A study of Mus musculus with 6 samples.

Results

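In RNA of sorted leukemia cells, 9 genes that macrophages express were measured: the complement genes C1qa, C1qb and C1qc and the macrophage markers Csf1r, Emr1 (now named Adgre1), Cd14, Cd68, Lyz2 and Mrc1. They were chosen by name, and all 9 were found among the 23284 genes of the files and passed the filter for testing, which kept 11703 genes. The cells were C1498, a mouse acute myeloid leukemia (AML) line made to carry GFP and expanded from 1 clone. They were injected into C57BL/6 J mice, by the methods females unless stated otherwise. On day 21, bone marrow cells of 3 mice given cytarabine and of 3 control mice were blocked with an antibody to Fc receptors, which macrophages carry, and the GFP-positive, CD49b-positive cells were sorted. Cytarabine is a nucleoside analog that blocks DNA synthesis, and no dose is tied to the mice used for RNA-Seq. The control mice carried the same leukemia and are called PBS-treated in the records and untreated in the methods. The libraries, 1 per mouse, are called cytarabine 1, 2 and 3 and control 1, 2 and 3. The values are FPKM, in which fragments are divided by exon length and by library size, so levels of different genes can be set side by side per length. None of the 9 genes differed between the groups beyond the spread between mice, and among the control mice the highest level exceeded the lowest by 2.33-fold (Lyz2) to 24.4-fold (C1qc).

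Macrophages are phagocytes of bone marrow and most other tissues that take up dying cells and debris. Resident macrophages are a main source of C1q, the recognition molecule of the classical complement pathway, which is built from A, B and C chains. C1q binds antibody complexes and dying cells and starts complement cleavage through the proteases C1r and C1s. Growth and survival of macrophages depend on the CSF1 receptor, and their phagosomes and lysosomes hold CD68 and lysozyme.

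The sorted cells were first compared with their label. Ptprc, the pan-leukocyte antigen CD45, was between 283.5 and 385.5 FPKM in the 6 libraries. Itga2, the CD49b antigen used for sorting, read 8.11, 7.79 and 7.88 FPKM under cytarabine against 10.6, 13.3 and 12.8 FPKM in controls. Transcripts of other tissues were present and parted the libraries across the groups. Zg16, a goblet cell gene of the colon, reached 1948 FPKM in cytarabine 2, 2207 in cytarabine 3 and 1049 in control 1, against 137, 9.58 and 9.49 FPKM in cytarabine 1, control 2 and control 3. The estimated library totals ranged from 11390000 to 18790000 reads.

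The C1q genes had the widest range of all 9. C1qa was at 1.83, 18.5 and 14.4 FPKM in the cytarabine libraries (1, 2 and 3 in order, as throughout), against 8.80, 47.5 and 3.56 FPKM in the control libraries. C1qb was at 2.14, 12.6 and 8.90 FPKM under cytarabine against 6.39, 35.3 and 2.13 FPKM in controls. C1qc was at 2.88, 14.4 and 14.4 FPKM under cytarabine against 7.69, 47.3 and 1.94 FPKM in controls. For each chain control 2 was the highest library, cytarabine 1 and control 3 were the lowest pair, and the values of the groups overlapped. The highest library exceeded the lowest by 26.0-fold for C1qa, 16.6-fold for C1qb and 24.4-fold for C1qc. This spread lay within the groups: between control 2 and control 3, mice given the same treatment, it was 13.4-fold, 16.6-fold and 24.4-fold for the same genes.

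**Figure D1:**
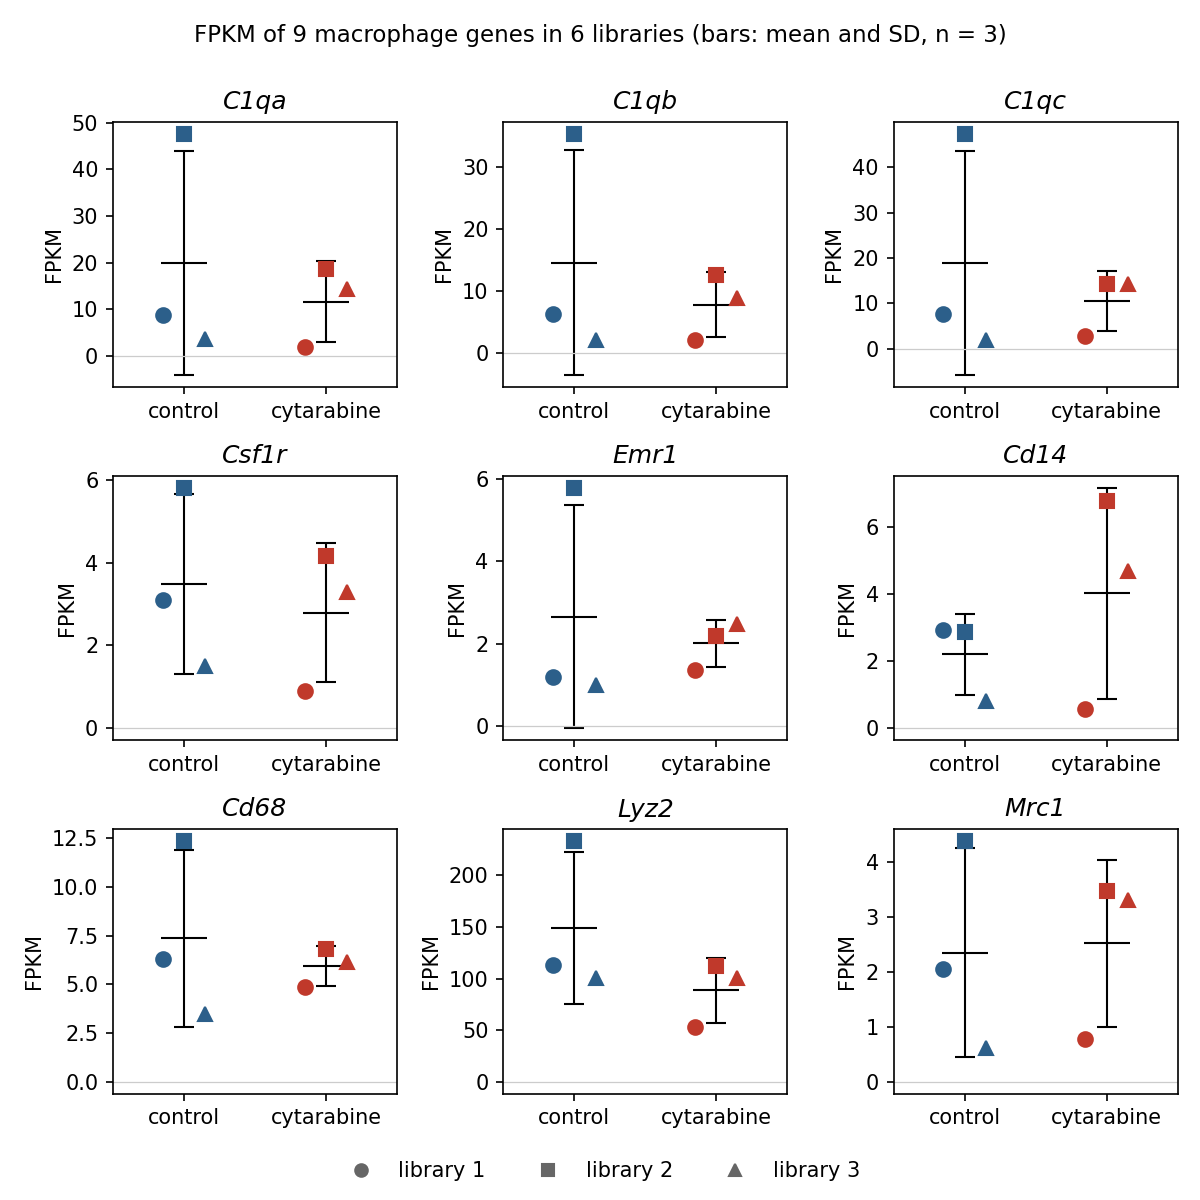
FPKM (vertical axes, with a grey line at 0) of the 9 genes in the 3 control and 3 cytarabine libraries, with each point a library, its shape the library number, and the black bars the group mean and SD (n = 3). Control 2 (square) stands highest in 8 of the 9 panels, and the groups overlap in all of them.

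The mean of C1qa was 11.6 ± 8.71 FPKM (SD, n = 3) with cytarabine and 19.97 ± 24.03 FPKM (SD, n = 3) in controls. Its log2 fold change, on the log2(FPKM + 1) scale that understates the change of low genes, was -0.45 with a 95% interval from -3.16 to 2.27 (adjusted p = 0.831 from limma over all 11703 genes). For C1qb the means were 7.87 ± 5.29 and 14.6 ± 18.05 FPKM (SD, n = 3 each), and the log2 fold change was -0.33, from -2.81 to 2.15 (adjusted p = 0.866 from limma). For C1qc they were 10.5 ± 6.63 and 18.98 ± 24.7 FPKM (SD, n = 3 each), with a log2 fold change of -0.14, from -2.89 to 2.60 (adjusted p = 0.948 from limma). None of the 3 differences exceeded the spread between mice, and each interval reached beyond 2 log2 units in both directions. Without control 2 the 3 log2 fold changes became 0.50, 0.64 and 0.94, and without cytarabine 1 they were 0.42, 0.30 and 0.52. Either library alone was enough to turn their sign.

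The proportions of the 3 chains varied far less than their sum. The summed FPKM of C1qa, C1qb and C1qc was 6.84, 45.5 and 37.7 in cytarabine 1, 2 and 3 and 22.9, 130.2 and 7.63 in control 1, 2 and 3, a 19.03-fold range. C1qb made up between 23.6% and 31.2% of that sum in the 6 libraries. C1qa made up between 38.3% and 40.8% in cytarabine 2, cytarabine 3 and control 1 and 36.5% in control 2. The share of C1qc ran from 25.5% in control 3 to 42.0% in cytarabine 1. The ratio of C1qa to C1qb spanned 1.96-fold and that of C1qc to C1qb 1.77-fold, the latter highest in cytarabine 3. The outlying shares of C1qa, 26.7% in cytarabine 1 and 46.7% in control 3, came from the pair with the lowest levels. There C1qa rested on about 20 and 34 reads, as reckoned from the estimated totals and the transcript length of 1040 bases, and a share from so few reads is imprecise.

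**Figure D2:**
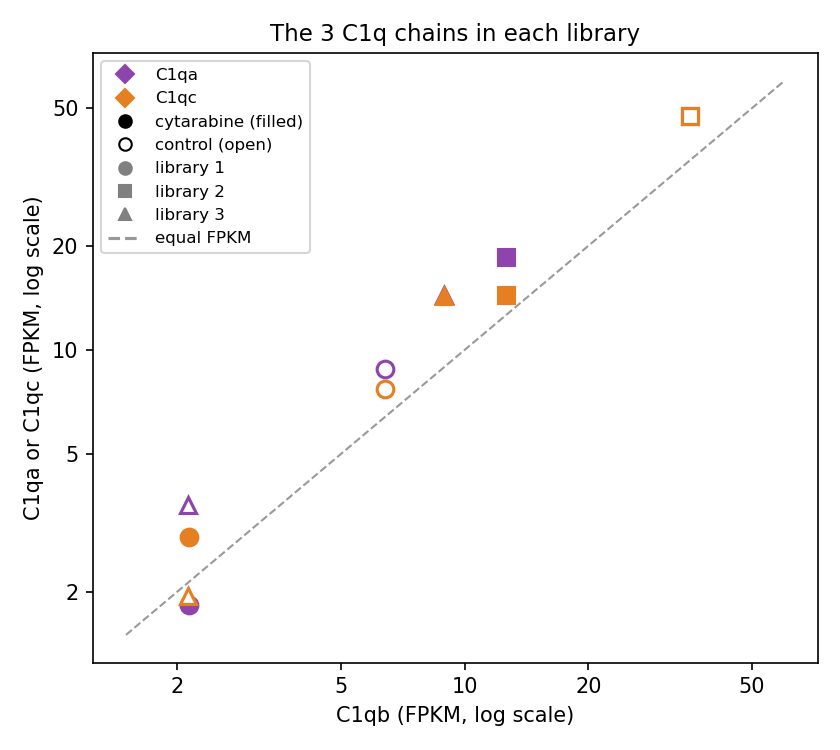
C1qa (purple) and C1qc (orange) against C1qb, all in FPKM on log axes, with 1 point per library (filled for cytarabine, open for control, shape by library number) and a dashed line of equal FPKM. Over C1qb values from 2.13 to 35.3 FPKM, all points lie above the line but C1qa of cytarabine 1 and C1qc of control 3, both at the low end.

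The 3 genes are neighbours on chromosome 4 of GRCm38, all on the minus strand. C1qb lies from 136880129 to 136886187, C1qc from 136889804 to 136893065 and C1qa from 136895917 to 136898803, with gaps of 3616 and 2851 bases. Because these genes moved together, the bases before the RefSeq start of C1qb (chr4:136886201-136886450, GRCm38.p6) and of C1qc (chr4:136893066-136893164, without 151 bases that GENCODE places inside the gene) are shown. Both read 5′ to 3′ on the minus strand, and capitals mark GAGGAA or its reverse complement TTCCTC, a core of sites bound by PU.1, the transcription factor of macrophages encoded by Spi1:
C1qb: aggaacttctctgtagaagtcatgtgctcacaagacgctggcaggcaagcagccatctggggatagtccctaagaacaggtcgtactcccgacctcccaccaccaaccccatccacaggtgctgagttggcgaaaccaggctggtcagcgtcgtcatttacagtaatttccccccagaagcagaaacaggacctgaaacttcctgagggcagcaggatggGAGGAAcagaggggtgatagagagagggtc
C1qc: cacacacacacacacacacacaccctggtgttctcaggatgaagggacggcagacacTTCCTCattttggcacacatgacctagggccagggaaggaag
On either strand GAGGAA was found in 23.3% of the 32851 promoter windows of 250 bases and the longer GAGGAAGT, which contains it, in 2.44%. The window of C1qc holds the longer form and that of C1qb the shorter one. Of 5 members with a RefSeq window (C1qb, C1qc, Cd68, Lyz2 and Mrc1), 4 held GAGGAA and Lyz2 did not. A match of letters is not a binding site. Spi1 itself, listed as Sfpi1, was at 6.22, 2.76 and 2.78 FPKM under cytarabine against 2.49, 7.72 and 5.69 FPKM in controls. It was highest in control 2, as the C1q genes were, but next in cytarabine 1 and control 3, where they were lowest.

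The next 4 members encode receptors at the cell surface. Csf1r, the receptor of the growth factors CSF1 and IL-34, lies on chromosome 18 from 61100598 to 61132149 of GRCm38. It was at 0.912, 4.16 and 3.29 FPKM under cytarabine against 3.11, 5.81 and 1.51 FPKM in controls, with control 2 again highest and overlapping groups. Its log2 fold change was -0.24, with a 95% interval from -1.51 to 1.02 (adjusted p = 0.803 from limma). Its ligand Csf1 was at 1.22, 1.42 and 1.81 FPKM under cytarabine against 1.92, 1.59 and 0.735 FPKM in controls, and Il34 reached at most 1.15 FPKM.

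Emr1 encodes F4/80, an adhesion-type receptor by which mouse macrophages are commonly stained, and lies on chromosome 17 from 57358691 to 57483527. It was at 1.38, 2.18 and 2.48 FPKM under cytarabine against 1.197, 5.80 and 0.996 FPKM in controls. All 3 cytarabine libraries lay between the lower controls and control 2. The log2 fold change was -0.06, from -1.315 to 1.195 (adjusted p = 0.952 from limma). Without control 2 every cytarabine library was above both remaining controls, as for 13.4% of all genes tested, with a log2 fold change of 0.51 (adjusted p = 0.545 from limma).

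Cd14, the coreceptor that hands bacterial lipopolysaccharide to TLR4, lies on chromosome 18 from 36725067 to 36726798. It was at 0.590, 6.78 and 4.68 FPKM under cytarabine against 2.93, 2.87 and 0.805 FPKM in controls. Cd14 was the single member whose highest library was not control 2 but cytarabine 2. Its log2 fold change was 0.45, from -1.19 to 2.09 (adjusted p = 0.708 from limma). Single libraries decided this value. Without cytarabine 1 the remaining cytarabine libraries were above every control, with a log2 fold change of 1.14 (unadjusted p = 0.0428, adjusted p = 0.132 from limma), in a fit where 34.8% of all genes tested had an unadjusted p under 0.05 and 27.1% were higher without overlap. Without cytarabine 2 it was -0.0048, and without control 3 it was 0.08.

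Mrc1 encodes the mannose receptor CD206 of resident macrophages and lies on chromosome 2 from 14229392 to 14332057. It was at 0.774, 3.46 and 3.31 FPKM under cytarabine against 2.05, 4.37 and 0.609 FPKM in controls. The order of the libraries was like that of the C1q genes, with a narrower range of 7.18-fold. The log2 fold change was 0.12, from -1.27 to 1.52 (adjusted p = 0.913 from limma).

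Cd68, a glycoprotein of the lysosome membrane, lies on chromosome 11 from 69664213 to 69666153. It had the narrowest range, 3.57-fold, with 4.85, 6.84 and 6.15 FPKM under cytarabine against 6.29, 12.4 and 3.46 FPKM in controls. The log2 fold change was -0.14, from -1.12 to 0.85 (adjusted p = 0.861 from limma). Without control 2 it was 0.27.

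Lyz2, the lysozyme of macrophages and neutrophils, lies on chromosome 10 from 117277331 to 117282321 and was far above the other members. It was at 52.8, 112.6 and 100.4 FPKM under cytarabine against 112.8, 233 and 100.1 FPKM in controls. The mean was 88.6 ± 31.6 FPKM (SD, n = 3) with cytarabine and 149 ± 73.4 FPKM (SD, n = 3) in controls. Its log2 fold change of -0.71, from -1.74 to 0.33, was the largest in size among the 9 but did not pass the test (adjusted p = 0.394 from limma). Without control 2 the log2 fold change was -0.33, nearer to 0 with the same sign, and without control 3 the groups did not overlap, with cytarabine lower as for 15.3% of all genes tested, at -0.94 (adjusted p = 0.53 from limma).

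Lyz2 shares sequence with Lyz1, the lysozyme gene of Paneth cells, which lies beside it on the chromosome with a gap of 5475 bases. Their coding sequences of 444 bases are identical at 422 positions (95.05%). The first 75 bases of each, the length of 1 read, are shown because Cufflinks could have divided reads between the copies, with capitals at the 5 bases that differ:
Lyz2: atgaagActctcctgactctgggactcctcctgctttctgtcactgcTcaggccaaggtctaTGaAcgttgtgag
Lyz1: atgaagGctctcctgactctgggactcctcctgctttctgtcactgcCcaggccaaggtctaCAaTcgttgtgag
Of the 1242 windows of 75 bases in the Lyz2 transcript, 74 (5.96%) occur without a change in Lyz1, and none of the other 8 members shared a window with another gene's transcript. Lyz1 was at 4.82, 17.3 and 12.8 FPKM under cytarabine against 13.7, 22.3 and 9.49 FPKM in controls, with a ratio to Lyz2 in the same library between 0.0912 and 0.153.

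**Figure D3:**
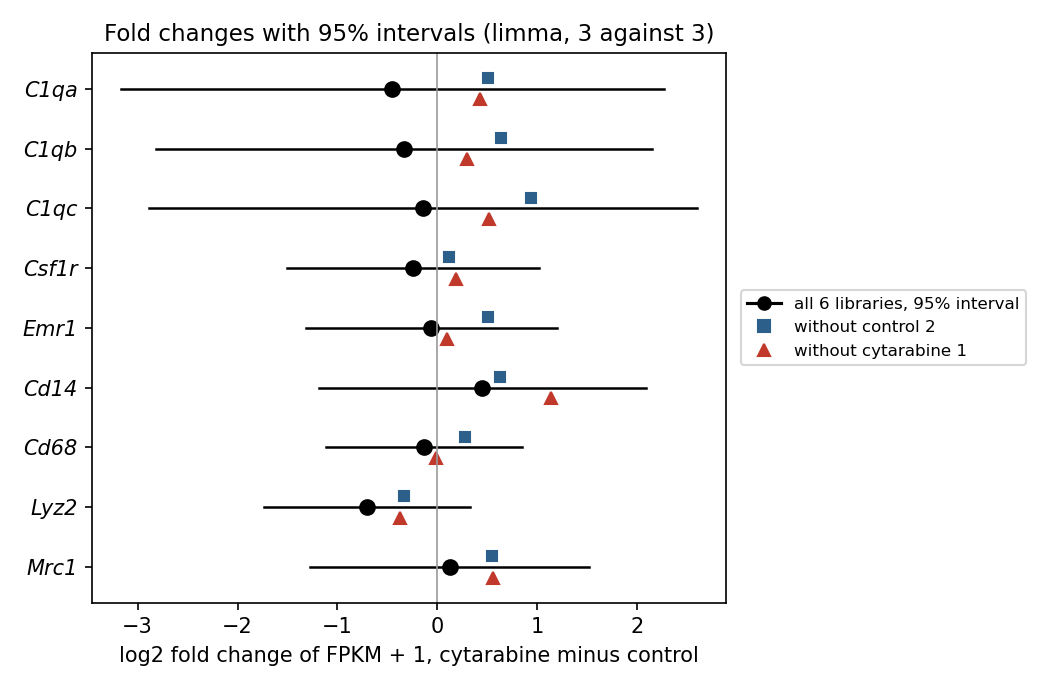
Log2 fold change of FPKM + 1 (horizontal axis, cytarabine minus control) for the 9 genes, with black points and 95% intervals from limma on all 6 libraries and the same estimate without control 2 (blue squares) or without cytarabine 1 (red triangles). All 9 intervals cross 0, and without control 2 the estimates of 6 genes change sign.

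Across the 9 members, 7 log2 fold changes were below 0 and 2 above. Their median was -0.14, against -0.0015 over all genes tested. None of the 9 had an unadjusted p under 0.05, while 17.4% of all genes tested did (2038 genes, of which 7.6% of those tested were higher and 9.81% lower with cytarabine). None had groups without overlap, against 23.8% of all genes tested. With limma's adjusted p under 0.05, 0 members and 0 genes (0% of those tested) were called. The members varied more than most genes: the SD of log2(FPKM + 1) over the 6 libraries had a median of 0.73 over the members and 0.18 over all genes tested. C1qa, C1qb and C1qc were each more variable than at least 95.2% of the genes tested. Bulk RNA does not show which cells these transcripts came from. A difference in cell number and one in RNA per cell cannot be told apart in it either.

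Relative to C1q the other members were not constant. The ratio of Csf1r to the mean of the 3 C1q genes was 0.4001, 0.274 and 0.262 with cytarabine and 0.408, 0.134 and 0.593 in controls. The ratio of Cd14 to that mean was 0.259, 0.447 and 0.373 with cytarabine and 0.384, 0.0661 and 0.316 in controls. The ratio of Lyz2 was 23.2, 7.42 and 7.997 with cytarabine and 14.8, 5.37 and 39.4 in controls. For all 6 other members this ratio was lowest in control 2, the library with the most C1q. C1q is the divisor and had the widest range, so a low ratio at its peak follows largely from the measure.

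Because the colon transcripts crossed the groups, each difference was also taken within its sides, which have 1 library on one side each and allow no test. The sides were drawn after the values were seen and do not match the groups for colon transcript. Summed FPKM of the colon genes was 331 in cytarabine 1 against 25.4 and 27.1 in control 2 and 3. On the other side it was 4282 and 4606 in cytarabine 2 and 3 against 2061 in control 1. Among the libraries with little colon transcript, all 9 members had a lower log2(FPKM + 1) in cytarabine 1 than the mean of control 2 and control 3, by -2.40 for C1qa, -1.11 for Csf1r and -0.40 for Cd68. Among those with much of it, 8 of the 9 had a higher mean in cytarabine 2 and 3 than in control 1, by 0.82 for C1qa and C1qc, 0.76 for Cd14 and 0.04 for Cd68. Lyz2 differed by -0.09 there. For 5 of the 9 members (C1qb, C1qc, Emr1, Cd68 and Mrc1) the sign on the low side rests on control 2, because cytarabine 1 was above control 3. For the other 4 (C1qa, Csf1r, Cd14 and Lyz2) cytarabine 1 was below both controls. With the score of the colon genes as a covariate, none of the 9 had an unadjusted p under 0.05.

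The summed FPKM of 13 colon epithelium genes was 331, 4282 and 4606 with cytarabine and 2061, 25.4 and 27.1 in controls. That of 9 heart genes was 7.46, 22.6 and 688 with cytarabine and 2531, 542 and 52.7 in controls. That of the 9 members was 68.2, 181 and 158 with cytarabine and 151, 394 and 115 in controls. Most of the members' sum was Lyz2, at 52.8, 112.6 and 100.4 FPKM with cytarabine and 112.8, 233 and 100.1 FPKM in controls. Control 2, where the members' sum was highest, had the lowest colon sum and an intermediate heart sum. Among the other libraries, the members' sum was higher in cytarabine 2, cytarabine 3 and control 1, which had much colon transcript. It was lower in cytarabine 1 and control 3, which had little. Summed C1q was 45.5, 37.7 and 22.9 FPKM in the former, 6.84 and 7.63 FPKM in the latter and 130.2 FPKM in control 2. The order that leaves out control 2 was read after the values were seen. The sum of 15 neutrophil markers, cells that also hold lysozyme, was 1734, 271 and 258 with cytarabine and 1515, 2133 and 2101 in controls. At an unadjusted p under 0.05, 8 of these markers were lower with cytarabine and 0 higher. Of all genes tested 9.81% were lower and 7.6% higher, and no marker passed after adjustment. Among the 8 were Mmp8 (log2 fold change -2.32) and Retnlg (-3.23), each with an adjusted p of 0.131 from limma. Mpo, Elane, Prtn3 and Ctsg, singled out after their values were seen, did not pass (log2 fold changes from -0.17 to 0.35). All of these were highest in cytarabine 1, with Elane at 81.7 FPKM. Lyz2 and the neutrophil sum were both highest in control 2, while cytarabine 1 had the lowest Lyz2 and the highest neutrophil sum of the cytarabine libraries. The part of these cells and tissues in the members' values was not tested.

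**Figure D4:**
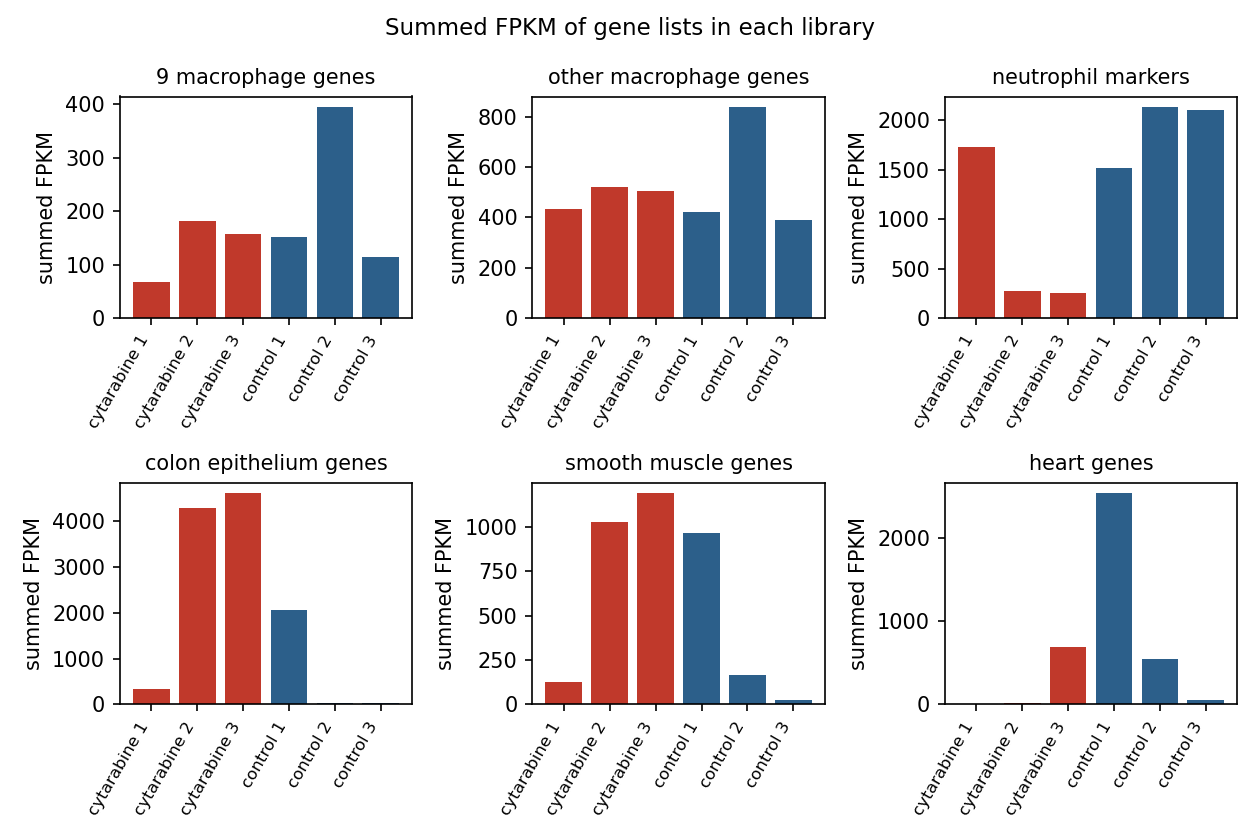
Summed FPKM (vertical axes from 0) of 6 gene lists in each library, red for cytarabine and blue for control. The 9 macrophage genes sum highest in control 2, at 394, of which Lyz2 gives 233. The colon and smooth muscle genes are high in cytarabine 2, cytarabine 3 and control 1 and the heart genes in control 1.

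Of 35 other macrophage genes, 24 were tested, 0 were higher and 3 were lower with cytarabine at an unadjusted p under 0.05, and none passed after adjustment. Among all genes tested, 7.6% were higher and 9.81% lower at that unadjusted threshold. Itgam, the integrin chain CD11b that is also a complement receptor, was at 2.30, 1.22 and 0.933 FPKM under cytarabine against 3.17, 4.76 and 3.94 FPKM in controls (log2 fold change -1.02, standard error 0.26, adjusted p = 0.173 from limma). Cx3cr1, the fractalkine receptor, was at 46.1, 41.1 and 38.7 FPKM against 46.0, 66.5 and 67.0 FPKM (log2 fold change -0.49, standard error 0.16, adjusted p = 0.233 from limma). Both are also made by other leukocytes. Of the 24 genes, 17 were highest in control 2, against 11.7% of all genes tested, a library singled out after its values were seen. Of the 35 genes, 8 were under 1 FPKM in every library, among them Siglec1, Cd163, Vsig4, Marco, Cd5l, Spic and Timd4. Slc40a1 and Folr2, which resident macrophages also express, were not low in every library and were named after their values were seen. Slc40a1, the iron exporter ferroportin, was at 3.60, 18.4 and 26.1 FPKM under cytarabine against 8.93, 1.17 and 1.31 FPKM in controls. It was lowest in control 2, where Folr2 was highest, at 3.13 FPKM. Fcer1g and Tyrobp, signalling adaptors shared with NK cells, were at 147 to 280 and 23.6 to 69.4 FPKM, levels far above those of Csf1r.

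**Figure D5:**
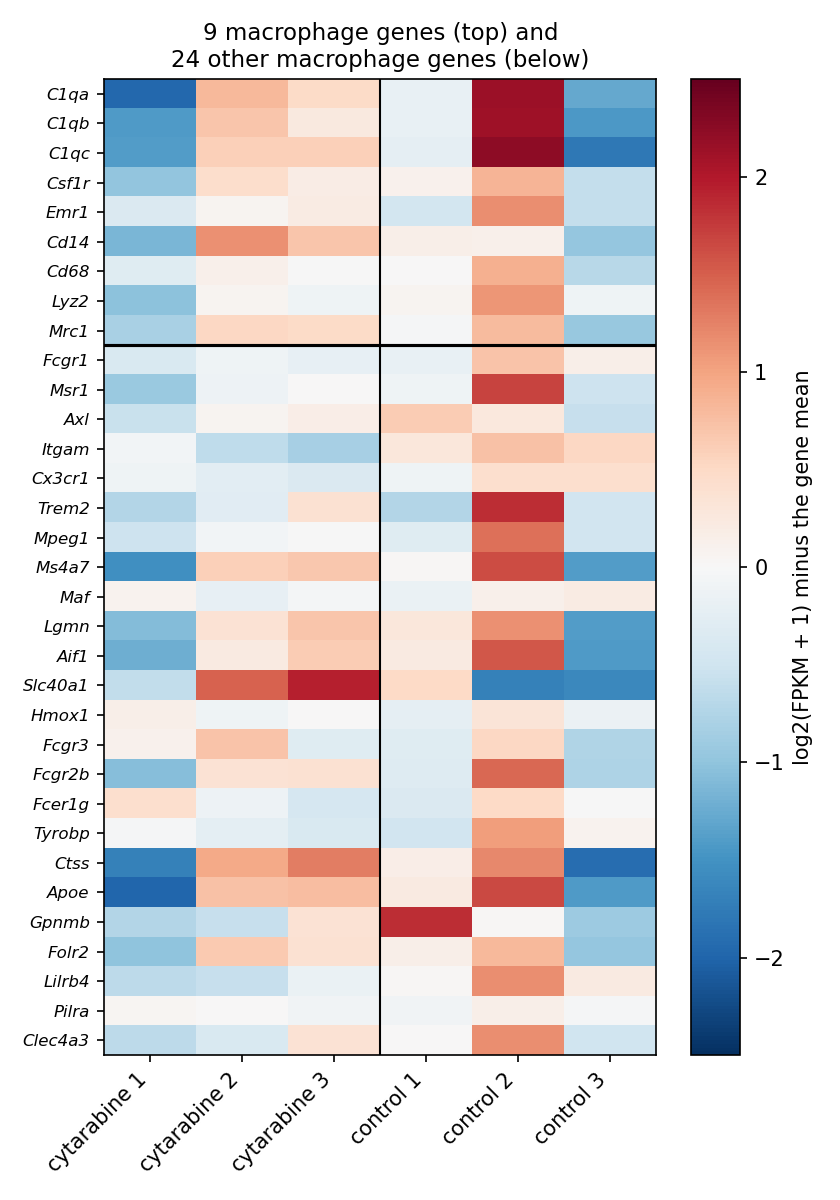
Log2(FPKM + 1) minus each gene's mean over the 6 libraries (colour, red above and blue below) for the 9 genes and, under the black line, the 24 other macrophage genes tested, with 1 column per library. Control 2 is the highest column for 8 of the 9 genes and for 17 of the 24, while Slc40a1 and Gpnmb show other orders.

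The genes closest to the C1q profile were sought over all 11694 other genes tested, by the root mean square difference of centred log2(FPKM + 1) over the 6 libraries. They were Ms4a7 (0.26), Scd1 (0.28), Apoe (0.34), Aif1 (0.40) and Gm11428 (0.45), while the 3 chains themselves lay within 0.19 of their mean profile. Ms4a7, a membrane protein of macrophages, was at 0.570, 5.86 and 6.22 FPKM under cytarabine against 3.63, 13.04 and 0.727 FPKM in controls. Scd1, closer to the C1q profile than Apoe, was at 0.558, 5.23 and 8.48 FPKM under cytarabine against 3.14, 20.4 and 0.411 FPKM in controls. Apoe, which carries lipid and is made in quantity by macrophages, was at 13.2, 91.5 and 94.2 FPKM under cytarabine against 64.6, 175 and 19.97 FPKM in controls. Closest to the mean profile of the other 6 members were Tgfbi (0.13), Cp (0.15), Sulf1 (0.16), Cidec (0.17) and Cxcl14 (0.18). The 6 members themselves lay at 0.11 (Csf1r), 0.16 (Mrc1), 0.25 (Cd68), 0.32 (Emr1), 0.33 (Lyz2) and 0.50 (Cd14), so 4 of them were farther from their mean profile than these 5 genes. The 5 genes were picked as the closest of 11694, so their being nearer than most members was to be foreseen. Cp, Sulf1, Cidec and Cxcl14 were low, reaching at most 3.52 FPKM (Cxcl14 in control 2). All these likenesses are over 6 libraries in which tissue transcripts also varied.

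The rest of the complement system was read in 3 lists. Of 22 components 9 were tested, of 11 regulators 7, and of 13 receptors 5, and among these 0 components, 0 regulators and 2 receptors (Itgam and Itgb2, both lower) had an unadjusted p under 0.05. Among all genes tested, 9.81% were lower at that threshold. The proteases that C1q activates, C1ra and C1s, were singled out after their values were seen. C1s was at 0.225, 8.63 and 7.58 FPKM under cytarabine against 4.19, 4.31 and 0.608 FPKM in controls, lowest in the same pair of libraries as C1q but with no peak in control 2. C1ra was between 1.76 and 4.06 FPKM. Serping1, the inhibitor of both proteases and singled out likewise, was at 1.27, 20.7 and 19.8 FPKM under cytarabine against 9.11, 24.2 and 1.45 FPKM in controls. The components C8a, C8b, Mbl1 and Mbl2 were listed at 0 in all 6 libraries.

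The pathways around the receptors were read in the same way. Of 19 CSF1 receptor pathway genes 16 were tested, and Ets2, a transcription factor downstream of growth factor receptors, was higher with cytarabine at an unadjusted p under 0.05 (log2 fold change 0.34, standard error 0.13, adjusted p = 0.256 from limma). Of 17 endotoxin receptor pathway genes 14 were tested, with 3 higher and 1 lower at an unadjusted p under 0.05. Irak2 was at 2.11, 3.98 and 3.59 FPKM against 1.67, 1.37 and 1.07 FPKM (log2 fold change 0.81, adjusted p = 0.203 from limma), and Ly96, the TLR4 partner MD-2, had a log2 fold change of 0.94 (adjusted p = 0.236 from limma). Irak1 was lower, with a log2 fold change of -0.31 (adjusted p = 0.163 from limma). Of 19 lectin and scavenger receptors 8 were tested and 0 passed in either direction. All 19 lysosome genes were tested, with 2 higher and 0 lower. Grn, progranulin, was at 31.3, 30.6 and 32.9 FPKM under cytarabine against 20.004, 23.5 and 22.4 FPKM in controls (log2 fold change 0.51, standard error 0.08, adjusted p = 0.135 from limma). Unlike Cd68 and Lyz2, Grn did not overlap between the groups, but it was named for the smallest p of its list. Among all genes tested, 10.9% were higher without overlap. At an unadjusted p under 0.05, 7.6% of them were higher and 9.81% lower. No gene of these lists passed after adjustment.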

How the data were processed

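RNA was measured in GFP-positive, CD49b-positive C1498 cells of 3 cytarabine-treated and 3 control mice, grouped by the sample records. The authors mapped 75-base single-end reads of stranded mRNA libraries to mm10 with TopHat2 2.0.13, Bowtie2 2.2.3 and SAMtools 0.1.19, and deposited FPKM per gene from Cufflinks 2.2.1. The annotation, the strand setting and the Cufflinks options are not given in the sources used here. The values are not counts, so a count test was not run.

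The genes and lists were chosen with earlier results of these data known. The deposited FPKM values were put on the log2(FPKM + 1) scale. For the 11703 genes whose mean was 1 FPKM or more, limma 3.58.1 (R 4.3.3) gave two-sided tests by lmFit and eBayes (trend), with p-values adjusted by Benjamini-Hochberg over these genes, and this step was first tested on simulated data. Whether libraries of a group came from independent experiments is not stated, so p-values measure the spread between these mice. Read totals per library were estimated from the spacing of low FPKM in 3802 genes with 1 transcript in GENCODE M21 (GRCm38), assuming fragments of 200 bases, and approximate read numbers carry that assumption. Positions come from that annotation and promoters from RefSeq (GRCm38.p6). Beside the 9 members, named genes are up to 2 per direction and list with the smallest unadjusted p under 0.05, the 5 closest profiles, genes near 0 in lists of cell markers, and others said to be singled out. A few genes that this rule names are not reported here. Spi1, Csf1, Il34, C8a, C8b, Mbl1, Mbl2, Fcer1g, Tyrobp, Gpnmb, Cd3e and Cd3g were also chosen after their values were seen. Of 275 list entries 2 had no row. Alternatives were another pseudocount, other filters, scalings and eBayes settings, tissue scores as covariates, the replicate block and leaving out each library. Imaging and survival data were not analysed here. Figures were drawn with matplotlib 3.10.9.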

Additional observations from a re-analysis of the deposited data

How the results depend on the processing

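Over all alternatives and members, 123 of 149 log2 fold changes kept their sign, 26 did not, and 0 reached an adjusted p under 0.05 with limma. Leave-one-out fits, 6 in all, gave log2 fold changes from -1.20 to 0.50 for C1qa, -1.13 to 0.64 for C1qb, -1.08 to 0.94 for C1qc, -0.60 to 0.19 for Csf1r, -0.38 to 0.51 for Emr1, -0.0048 to 1.14 for Cd14, -0.52 to 0.27 for Cd68 and -0.32 to 0.56 for Mrc1. Lyz2 stayed below 0 in these fits, from -0.94 to -0.33. The sign turned without control 2 for 6 members and without cytarabine 1 for 5. The number of members with an unadjusted p under 0.05 ranged from 0 to 1 (Cd14 without cytarabine 1, where 34.8% of all genes tested passed), and that of members whose groups do not overlap from 0 to 1 (Cd14 without cytarabine 1, Emr1 without control 2, Lyz2 without control 3). Groups of fewer libraries overlap less often by construction.

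Emr1 changed sign with a pseudocount of 0.1 (0.017) and Mrc1 with quantile normalization (-0.12). With the colon score as a covariate the values were 0.11 for Emr1, -0.44 for Cd14 and -0.31 for Mrc1. With colon and heart scores, a setting chosen after seeing the data, they were 0.74 for C1qa, 1.04 for C1qb, 1.81 for C1qc, 1.27 for Emr1, -0.17 for Cd14 and 0.61 for Cd68. The cause was not tested.

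Over all genes, limma called 0 at an adjusted p under 0.05 and 2038 at an unadjusted one. There was 1 with a pseudocount of 0.1, 2 without the trend, 1 with the robust trend and from 0 to 5 in the leave-one-out fits. Those with an unadjusted p under 0.05 became 569 with both tissue scores and ranged from 1179 (without control 3) to 4075 (without cytarabine 1). Replicate numbers are those of the source names, which state no pairing, so neither the block nor this check can test one. Deviations of same-numbered libraries correlated at -0.709, -0.247 and -0.594. With the replicate block 994 genes and 0 members had an unadjusted p under 0.05. Lyz2 came nearest in that fit (unadjusted p = 0.063, adjusted p = 0.567 from limma). With a minimum mean of 5 FPKM only 5 members were tested. The lowest libraries gave about 11 reads for Cd14 and 20 for C1qa, so values there are imprecise. Lyz2, at about 769 to 3210 reads, did not pass either. Small changes could not be seen over the spread between mice.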

Other observations

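Markers of other cell types were read as lists, with calls at an unadjusted p under 0.05 and none past adjustment. Whether their transcripts came from such cells or from the sorted leukemia cells was not tested. Among all genes tested, 7.6% were higher and 9.81% lower at an unadjusted p under 0.05. Of 10 monocyte genes 7 were tested, and Ifitm6 was lower with cytarabine, at 5.94, 2.69 and 5.37 FPKM against 12.8, 20.3 and 20.8 FPKM in controls (log2 fold change -1.76, standard error 0.30, adjusted p = 0.136 from limma). Of 12 dendritic cell markers 4 were tested and 0 passed. Their summed FPKM, mostly from H2-Aa, H2-Ab1 and Cd74, was 50.3, 130 and 85.8 with cytarabine and 42.7, 100.6 and 22.2 in controls. Of 9 B cell markers 4 were tested, and Cd79b was higher (log2 fold change 0.66, adjusted p = 0.231 from limma). Of 9 erythroid markers 4 were tested and 0 passed, with a sum of 152 FPKM in cytarabine 1 and at most 40.1 FPKM elsewhere. Of 7 mast cell and basophil markers 3 were tested, and Cpa3 was higher, at 480, 432 and 456 FPKM against 334, 350 and 438 FPKM (log2 fold change 0.30, adjusted p = 0.277 from limma). The other 4 (Fcer1a, Ms4a2, Mcpt4 and Tpsb2) were under 1 FPKM in every library. Of 8 T cell markers 3 were tested and Cd3d was higher (log2 fold change 0.86), while the more abundant Cd3e and Cd3g, at 129.6 to 199 and 449 to 652 FPKM, had log2 fold changes of -0.29 and -0.24 that did not pass. Of 5 NK cell markers 2 were tested and Gzma and Klrb1c were both higher. The 8 smooth muscle genes summed to 124, 1026 and 1189 FPKM with cytarabine and to 964, 168 and 24.7 FPKM in controls, and 0 of them, of 12 tested colon genes or of 8 tested heart genes passed. Of 4 genes chosen for the identity of the sorted cells 3 were tested, and Itga2 was lower (log2 fold change -0.57, adjusted p = 0.136 from limma).

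Cytarabine 1 and control 3, the pair lowest in 8 of the 9 macrophage genes, received different treatments. Their summed C1q was 6.84 and 7.63 FPKM.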
